A study of Mus musculus with 6 samples.

Results

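The genes that make fatty acids and store them as triglyceride were followed in white adipose tissues (WATs) of mice with and without the neurotensin receptor gene Ntsr2 in adipocytes. The 42 genes were picked by symbol, for their place in the pathway, from the deposited table of 21456 genes. They cover fatty acid synthesis (7 genes), desaturation (8), elongation (4), regulators of these enzymes (3), fatty acid activation (4), triglyceride assembly (12) and the supply or handling of glycerol (4). All 42 symbols were found, and all 42 passed a mean normalized count of at least 10 over the 6 mice, as did 16157 genes of the table. A normalized count is the read number of a gene after division by the size factor of its library.

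RNA came from adipose tissue of 3 control mice (Ntsr2 flox/flox, with no Cre) and 3 Ntsr2 AKO mice (Adipoq-cre::Ntsr2 flox/flox), all on a chow diet. Both groups carry the floxed allele, and Cre under Adipoq acts in white and in brown adipocytes but not in the other cells of the tissue. The depot, age and sex of these mice are not given in the sources used here. The mice keep the numbers of their labels (3, 4 and 5 in each group). Nothing in the labels says how the animals relate to each other across groups. The limma p values set the difference of the group means against the spread within the groups of these 6 samples, drawn in part from other genes.

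In adipocytes, citrate leaves the mitochondrion and is cut to acetyl-CoA, which is carboxylated and joined into palmitate. Palmitate is elongated and desaturated, activated to acyl-CoA and placed on a glycerol backbone to give triglyceride. SREBP-1c and ChREBP, encoded by Srebf1 and Mlxipl, are the transcription factors best known for switching on this pathway after feeding. In adipocytes the glycerol backbone comes from glucose or, through glyceroneogenesis, from smaller precursors.

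The targeted gene was examined first. Ntsr2 had normalized counts of 83.8, 64.0 and 152.5 in control mice and of 3.10, 8.29 and 0 in Ntsr2 AKO mice, without overlap. Recovered read totals were 60405373 to 66098226 in control and 54085088 to 56268725 in Ntsr2 AKO mice, so every control library was deeper. The summed white adipocyte markers (11 of 11 found) ranged from 2518318 to 3633979 in control and from 2939171 to 3100814 in Ntsr2 AKO mice, and they were the most abundant markers of any list in every mouse except control 5. In control 5, the 13 skeletal muscle markers summed to 2718321, against 542 in the lowest control mouse and 1581 to 198529 in Ntsr2 AKO mice. The brown or beige adipocyte markers summed to 3660 to 7670 and 6710 to 11597, with Ucp1 at 55.7 or less in every mouse. Lymphoid markers reached 1507 in control 3 and 185 to 390 in the other mice, and the epithelial markers had 336 in control 3 and 37.2 to 48.9 elsewhere. Mesothelium had 157 to 470 and 142 to 177, endothelium 16417 to 24283 and 15351 to 21104, and the hepatocyte list, carried by Cyp2e1, 99589 to 175828 and 177268 to 236810. Fewer cells of a type and less RNA in each cell cannot be told apart in such tissue.

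Across the pathway no member passed the test between genotypes. In limma 0 of the 42 genes had an adjusted p under 0.05, and the same was found with edgeR and DESeq2. Over all genes 0.00619% passed in limma and 1.50% in DESeq2. At an unadjusted p under 0.05 there were 2 of 42 members, Fads6 and Elovl1, where 8.35% of all tested genes were that low. In edgeR the members at that level were likewise 2, where 8.19% of all genes were that low. In DESeq2 they were 4, the others being Acsl3 and Acsl4, where 10.6% of all genes were that low. On the log2 scale, on which all such counts of direction were made, the mean was higher in Ntsr2 AKO mice for 23 members and lower for 19. The median log2 fold change of the members was 0.04, beside -0.01 over all genes tested.

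The precision differed widely between members. The 95% interval of the difference stayed within a 2-fold change in either direction for 21 of the 42 genes and within a 1.5-fold change for 12. For the remaining 21 the limma interval reached past a 2-fold change. Its width also draws on the variance of other genes and not only on the mice. Scd1 had a residual SD of 0.26 but a standard error of 0.42. The median residual SD of the members was 0.41 on the log2 scale, above the median of 0.30 over all genes tested. Agpat3, one of the acyltransferases that add the second fatty acid, was the steadiest, and its highest mouse was 1.15 times its lowest. Acly, the citrate-cleaving enzyme, was the most variable member with reads in every mouse, at 4.66 times.

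**Figure D1:**
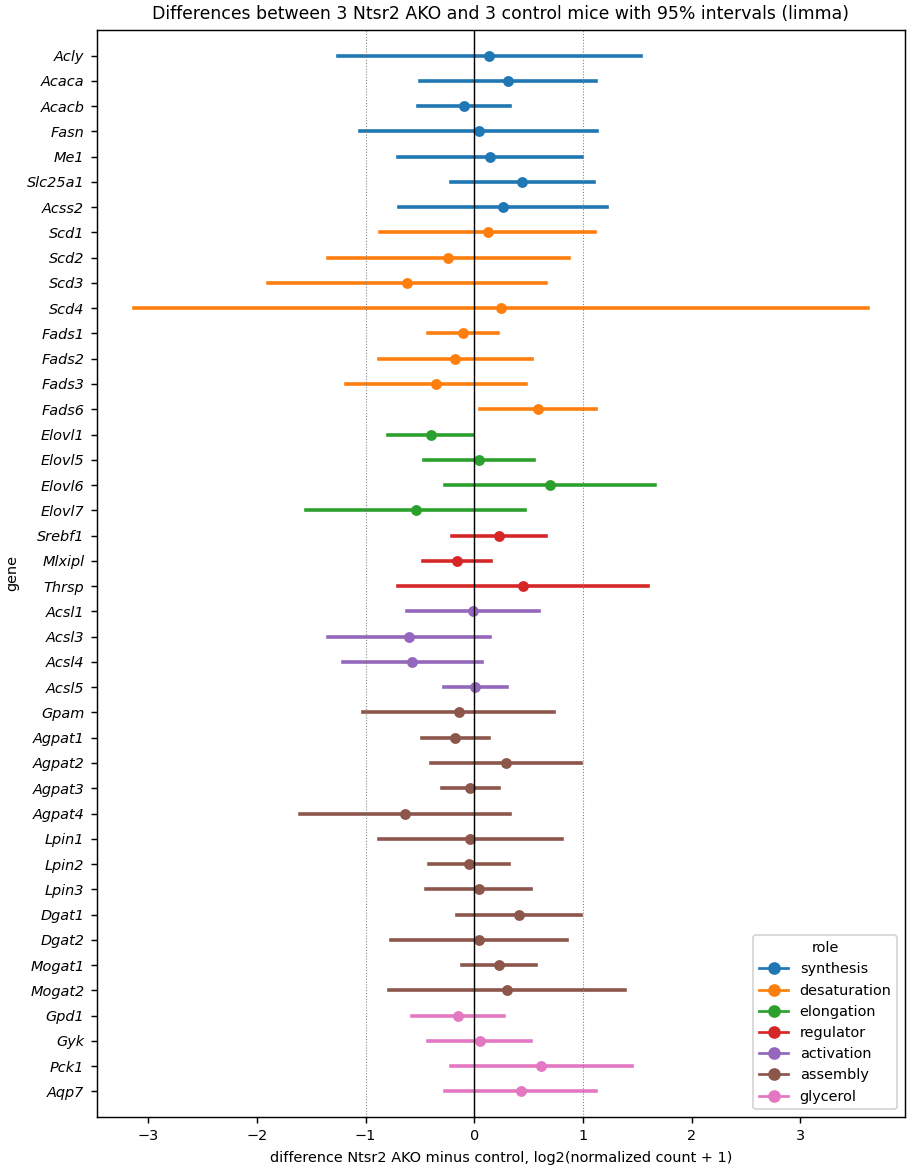
Difference between Ntsr2 AKO and control mice for each of the 42 genes, on the log2(normalized count + 1) scale, with 95% intervals from limma (3 mice in each group) and colours for the role of the gene. Dotted lines mark a 2-fold difference. The intervals of Fads6 and Elovl1 alone leave out 0, both with an adjusted p over 0.05.

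Fatty acid synthesis was described first by its key enzymes. Acly, which splits citrate into acetyl-CoA and oxaloacetate, had normalized counts of 13954, 39564 and 32388 in control mice 3, 4 and 5, and of 17535, 20860 and 64996 in Ntsr2 AKO mice 3, 4 and 5. The values of the groups overlapped, and the mouse with the most Acly and the mouse with the least differed in genotype. The log2 fold change was 0.14 (95% interval -1.26 to 1.53, limma adjusted p = 0.962). Acaca, the cytosolic acetyl-CoA carboxylase that makes malonyl-CoA, had 24934, 52613 and 40490 in control and 37072, 40448 and 67719 in Ntsr2 AKO mice. Its log2 fold change was 0.31 (95% interval -0.50 to 1.12, adjusted p = 0.813), again with overlap.

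Fasn, the synthase that builds palmitate, had 113443, 315922 and 183735 in control and 169873, 138861 and 304410 in Ntsr2 AKO mice. The group means were nearly the same, at 204366 ± 102804 and 204381 ± 88004 (SD, n = 3 mice each), while single mice of one group differed by more than 2-fold. The log2 fold change was 0.04, with a 95% interval of -1.05 to 1.13 (adjusted p = 0.984), so a 2-fold difference in either direction remained within the interval. Me1, the malic enzyme that supplies NADPH, had 27189, 47062 and 36887 in control and 29295, 32498 and 66820 in Ntsr2 AKO mice. For Me1 the log2 fold change was 0.14 (95% interval -0.70 to 0.99, adjusted p = 0.928).

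The 3 remaining genes of this step were described after their values were seen. Slc25a1, the carrier that exports citrate from mitochondria, had 15894, 30447 and 21713 in control and 24597, 27891 and 38376 in Ntsr2 AKO mice (difference on the log2 scale 0.44, 95% interval -0.22 to 1.10, adjusted p = 0.687). Acss2, which makes acetyl-CoA from acetate, had 5645, 11335 and 8882 in control and 7414, 7499 and 17661 in Ntsr2 AKO mice (difference on the log2 scale 0.26, adjusted p = 0.874). Acacb, the acetyl-CoA carboxylase placed at the mitochondrial membrane and better known for restraining fatty acid oxidation, had the narrowest interval of the step. It had 14039, 20569 and 18546 in control and 18442, 14473 and 16482 in Ntsr2 AKO mice (difference on the log2 scale -0.09, 95% interval -0.52 to 0.33, adjusted p = 0.901). By counts, 6 of the 7 synthesis genes had the higher mean in Ntsr2 AKO mice and 1 the lower, with a median log2 fold change of 0.14, and 0 of 7 passed the test.

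A shared order of the mice was noticed in these 7 genes after the values were seen, and it has no test here. Among the control mice, control 3 was lowest and control 4 highest in 7 of the 7. Among the Ntsr2 AKO mice, replicate 5 was highest in 6 of the 7, with Acacb as the exception. Control 4 and Ntsr2 AKO 5 were the highest of their groups in 15 of the 42 members (35.7%), beside 17.6% of all genes tested. That share is raised by the selection, as 6 of the 15 are synthesis genes in which the order was noticed. In the other roles the share ran from 12.5% (desaturation) to 33.3% (regulators and assembly). The other 9 of these 15 were Scd2, Elovl6, Thrsp, Acsl5, Agpat2, Agpat4, Lpin3, Mogat1 and Gpd1. With reads per total or quantile normalization the order held for 6 of the 7 synthesis genes, and relative to the adipocyte markers for 5. Over all genes tested the shares were 15.1%, 18.8% and 15.9%. These scalings reuse the same libraries, so they give no separate support for the order. Genes of 1 tissue sample share its library, so the 7 genes are not independent views of the mice.

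Of the marker lists, only the macrophage and the progenitor or fibroblast sums stood in a similar order, as seen after the values were known. The summed macrophage markers (7 of 7 found, none at 0) were 23679, 71120 and 44257 in control mice 3, 4 and 5 and 35339, 26593 and 58649 in Ntsr2 AKO mice. The progenitor or fibroblast markers (6 of 6 found) were 183302, 301596 and 256351 in control and 212322, 203382 and 478433 in Ntsr2 AKO mice. In both sums control 4 and Ntsr2 AKO 5 were the highest of their groups and control 3 the lowest control mouse. Single markers did not all follow. In the progenitor or fibroblast list only Col1a1 and Col3a1 did. Among the control mice Pdgfra, Dpp4 and Pi16 were highest in control 5 and Dpt in control 3. In the macrophage list Cd163 was highest in control 5, and Cd68 and Itgax were highest in Ntsr2 AKO 3 within its group. The other macrophage markers followed the order. The part of these cells in the levels of the synthesis genes was not tested.

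**Figure D2:**
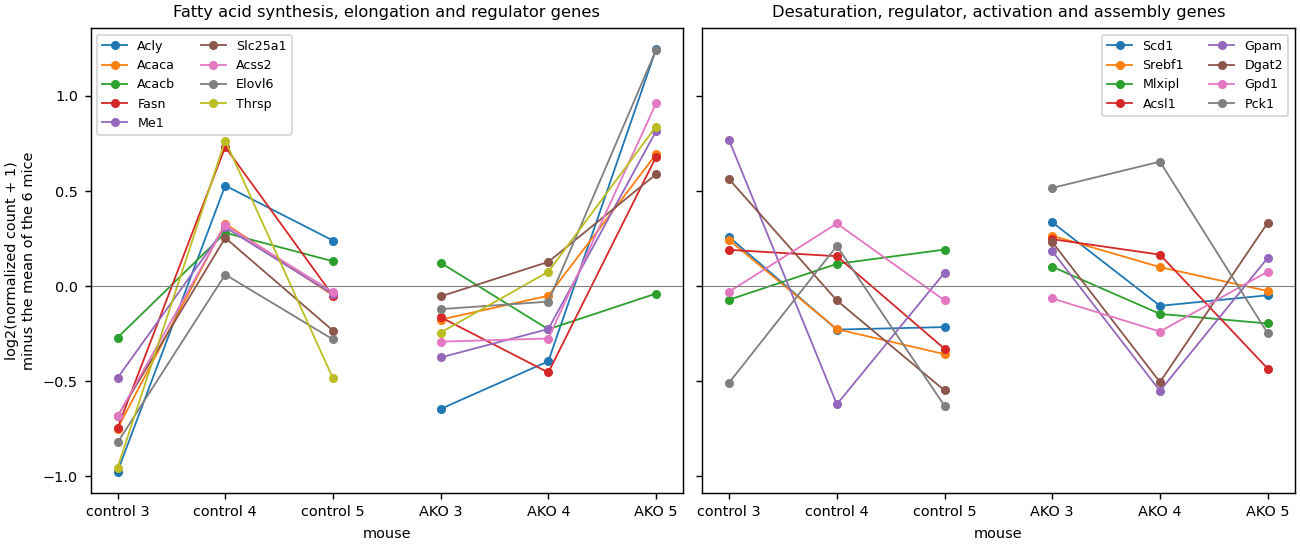
Level of each gene in each mouse on the log2(normalized count + 1) scale, minus the mean of the gene over the 6 mice. Lines join the mice of a group for 1 gene, and the mice have no order in time. On the left, the synthesis genes with Elovl6 and Thrsp are low in control 3 and, apart from Acacb, high in AKO 5. On the right, genes of other steps follow a mix of orders.

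The upstream sequences of 4 of these synthesis genes (Acly, Fasn, Slc25a1 and Acss2) are shown as examples. In each, control 4 and Ntsr2 AKO 5 were the highest of their groups, as they were also in Acaca and Me1. Any link between these sequences and the order of the mice was not tested. Each is the 250 bases before the annotated start of transcription, 5′ to 3′ on the strand of the gene (RefSeq, GRCm38.p6). Capitals mark the CCAAT motif bound by NF-Y and the GC box GGGCGG bound by SP1, on either strand (ATTGG and CCGCCC on the other). Acly lies at chr11:100528001-100528250 (minus strand), Fasn at chr11:120824548-120824797 (minus), Slc25a1 at chr16:17928220-17928469 (minus) and Acss2 at chr2:155517793-155518042 (plus).
Acly: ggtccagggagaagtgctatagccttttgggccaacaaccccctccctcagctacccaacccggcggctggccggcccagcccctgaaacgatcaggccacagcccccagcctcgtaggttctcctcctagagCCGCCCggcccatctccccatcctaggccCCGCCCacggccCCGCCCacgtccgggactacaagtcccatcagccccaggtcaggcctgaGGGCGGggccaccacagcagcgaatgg
Fasn: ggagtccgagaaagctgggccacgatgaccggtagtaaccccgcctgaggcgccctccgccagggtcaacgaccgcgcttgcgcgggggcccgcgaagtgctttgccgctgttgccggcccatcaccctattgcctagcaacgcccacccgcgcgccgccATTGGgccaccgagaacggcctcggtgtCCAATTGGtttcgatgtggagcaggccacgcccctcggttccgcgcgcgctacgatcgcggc
Slc25a1: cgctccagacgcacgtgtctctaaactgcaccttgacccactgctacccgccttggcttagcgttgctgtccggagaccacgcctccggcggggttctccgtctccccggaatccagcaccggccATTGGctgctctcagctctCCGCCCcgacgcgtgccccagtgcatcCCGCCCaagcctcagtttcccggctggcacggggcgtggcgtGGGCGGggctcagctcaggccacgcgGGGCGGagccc
Acss2: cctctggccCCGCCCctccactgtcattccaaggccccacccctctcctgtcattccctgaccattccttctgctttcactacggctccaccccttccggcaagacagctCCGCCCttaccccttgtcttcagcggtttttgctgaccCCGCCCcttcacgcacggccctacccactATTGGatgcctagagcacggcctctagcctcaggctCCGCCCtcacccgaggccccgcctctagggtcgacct
The Acly window held 4 GC boxes and 0 CCAAT motifs, while the Fasn window held 3 CCAAT motifs, of which a pair overlaps on opposite strands, and 0 GC boxes. The Slc25a1 and Acss2 windows each held 1 CCAAT motif and 4 GC boxes. Of the 34 members with an entry in the promoter table, 18 had a CCAAT motif in at least 1 promoter and 20 a GC box. Only the 250 bases before the start were searched. These motifs were held by 33.8% and 32.7% of all 32851 promoters, and of the 46 member promoters 41.3% and 52.2%. The E box CACGTG was in 4 of the 34 members (8.70% of their promoters, 6.02% of all) and the sterol element TCACNCCAC in 2, Acsl1 and Mlxipl (4.35% and 1.05%). A match describes the letters and not a bound site.

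Desaturation was dominated by Scd1, the stearoyl-CoA desaturase of adipocytes, which makes oleate from stearate. Scd1 had 1481595, 1057860 and 1067466 normalized counts in control and 1563438, 1153441 and 1198561 in Ntsr2 AKO mice. In each group the mouse numbered 3 was the highest, and the ranges overlapped. Its log2 fold change was 0.12 (95% interval -0.87 to 1.11, adjusted p = 0.951). Scd1 alone took 45.6% to 65.7% of all counts of the 42 members and 1.68% to 2.77% of the counts of the whole table. Scd2, the form found in many tissues, had 11736, 19735 and 15982 in control and 14799, 6417 and 23774 in Ntsr2 AKO mice. Its log2 fold change was -0.24 (95% interval -1.34 to 0.87, adjusted p = 0.904), and the Ntsr2 AKO mice alone spanned a 3.70-fold range.

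The Scd genes lie side by side on chromosome 19 (GRCm38), from Scd3 at chr19:44203269-44244016 through Scd2 and Scd4 to Scd1 at chr19:44394455-44407879. Their sequences are alike, so reads can be shared between them, and the low members are uncertain. Scd3 had 76.9 to 262 normalized counts, which is 0.0064% to 0.0177% of the Scd1 count in the same mouse. Scd4 had 8.28, 8.25 and 4.80 in control mice, and 33.03, 0 and 23.3 in Ntsr2 AKO mice. No value of Scd3 or Scd4 separated the groups (limma adjusted p = 0.771 and 0.971).

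The Fads genes encode the front-end desaturases of polyunsaturated fatty acids and their relatives. Fads1, the delta-5 desaturase, had 5442, 5091 and 4773 in control and 5271, 4971 and 4062 in Ntsr2 AKO mice. Its log2 fold change was -0.10 (95% interval -0.42 to 0.22, adjusted p = 0.840). The interval of Fads1 was among the narrowest of the pathway. Fads6, a little studied member of the family on chromosome 11 (chr11:115279622-115297663), had 193, 227 and 310 in control and 365, 368 and 344 in Ntsr2 AKO mice. All 3 Ntsr2 AKO values lay above the 3 control values, and no other member of the 42 was separated in this way, where 15.0% of all tested genes were. The fold change of Fads6 was 1.50 (95% interval 1.04 to 2.18), with an unadjusted p of 0.0360 and an adjusted p of 0.574 in limma. Over all alternatives its log2 fold change ranged from 0.44 to 0.80 and its adjusted p from 0.359 to 1. Fads2, the delta-6 desaturase, ranged from 173 to 293 normalized counts and Fads3 from 5798 to 16813, both with overlap (adjusted p = 0.887 and 0.795). Of the 8 desaturases 3 had the higher mean in Ntsr2 AKO mice and 5 the lower, with a median log2 fold change of -0.14.

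Among the elongases, Elovl6 extends palmitate to stearate. It had 1785, 3291 and 2599 in control and 2902, 2982 and 7460 in Ntsr2 AKO mice, and Ntsr2 AKO 5 stood far above all others. The log2 fold change was 0.69 (95% interval -0.27 to 1.66, adjusted p = 0.677), and without Ntsr2 AKO 5 it was 0.25. Elovl1, which acts on very long saturated chains, had 2113, 2006 and 1508 in control and 1539, 1293 and 1391 in Ntsr2 AKO mice. The lowest control mouse lay just under the highest Ntsr2 AKO mouse, so the groups overlapped. The log2 fold change was -0.40 (95% interval -0.79 to -0.01), with an unadjusted p of 0.0455 and an adjusted p of 0.590. Elovl5, which extends polyunsaturated chains, had 5124, 8707 and 5309 in control and 6586, 6239 and 6272 in Ntsr2 AKO mice (difference on the log2 scale 0.04, 95% interval -0.46 to 0.54, adjusted p = 0.968). All 3 Ntsr2 AKO values of Elovl5 fell within the range of the control mice. Elovl7 was scarce, at 30.4 to 69.1 normalized counts, and did not pass the test (adjusted p = 0.748). On the log2 scale the mean was higher for 2 elongases (Elovl6 and, by a margin far inside its interval, Elovl5) and lower for 2.

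Among the regulators, Thrsp shared the order of the enzymes, while Srebf1 and Mlxipl did not. Srebf1 had 16214, 11719 and 10700 in control and 16474, 14692 and 13468 in Ntsr2 AKO mice, with control 3, the mouse lowest in the synthesis enzymes, as the highest control mouse. Its log2 fold change was 0.23 (95% interval -0.21 to 0.66, adjusted p = 0.753). Mlxipl had 7120, 8112 and 8545 in control and 8027, 6760 and 6528 in Ntsr2 AKO mice, and its difference was -0.16 on the log2 scale (95% interval -0.47 to 0.16, adjusted p = 0.761). For Srebf1 and Mlxipl a 2-fold difference in either direction lay outside the interval. Thrsp, the Spot 14 protein of lipogenic tissues, had 33226, 109399 and 45996 in control and 54349, 67829 and 115125 in Ntsr2 AKO mice. The log2 fold change of Thrsp was 0.45 (95% interval -0.70 to 1.60, adjusted p = 0.809), and its control mice spanned 3.29-fold, the widest control range of the 42 genes. Transcript level does not measure the cleavage of SREBP-1c or the activity of ChREBP.

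**Figure D3:**
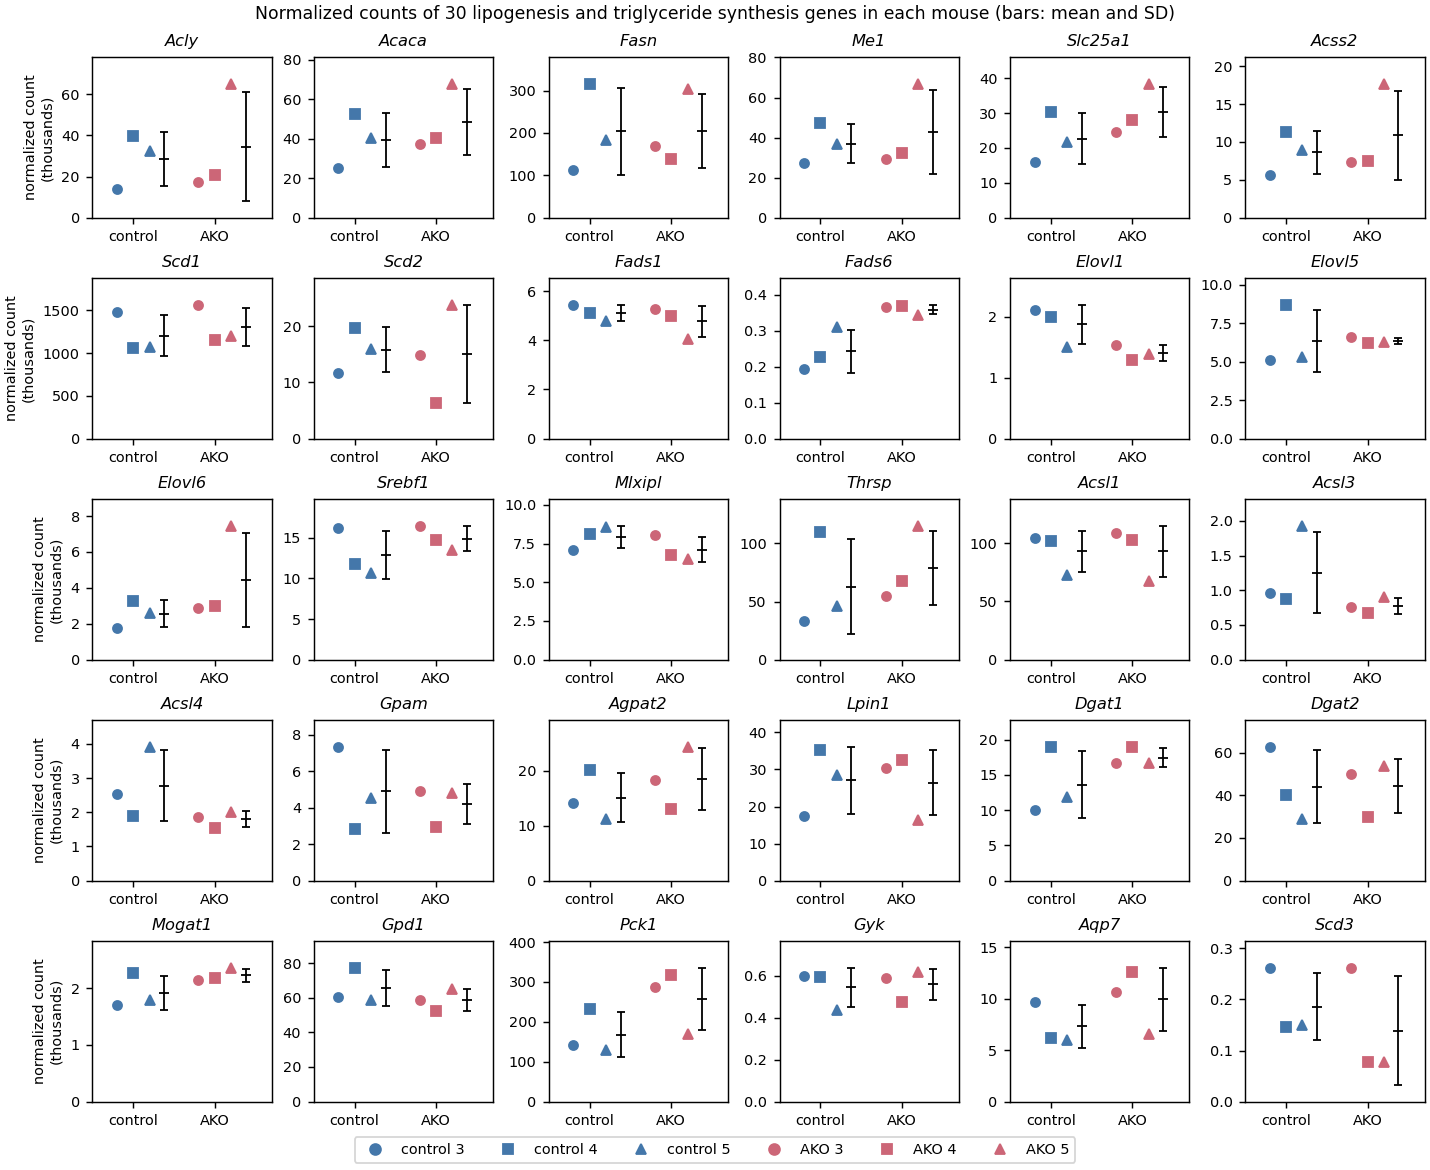
Normalized count in each of the 6 mice for 30 of the 42 genes, on linear axes from 0 that give the count divided by 1000. Points are mice and the bars beside them the mean and SD of 3 mice. The groups overlap in every panel except Fads6, where the 3 AKO mice lie between 344 and 368 and the control mice between 193 and 310.

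Fatty acid activation gave lower means in 3 of 4 genes and a median log2 fold change of -0.29. Acsl1, the main acyl-CoA synthetase of adipocytes, had 104429, 102024 and 72800 in control and 108570, 102610 and 67748 in Ntsr2 AKO mice (difference on the log2 scale -0.01, 95% interval -0.62 to 0.60, adjusted p = 0.991). In both groups the mouse numbered 5 was the lowest. Acsl3 and Acsl4, described after their values were seen, had the lower means in Ntsr2 AKO mice with the largest size in this step. Acsl3, linked to lipid droplet formation, had 957, 877 and 1931 in control and 765, 672 and 899 in Ntsr2 AKO mice (difference on the log2 scale -0.60, adjusted p = 0.635). Acsl4, which prefers arachidonate, had 2530, 1889 and 3917 in control and 1857, 1536 and 2008 in Ntsr2 AKO mice (difference on the log2 scale -0.57, adjusted p = 0.616). In both genes control 5 was at least 1.5 times every other mouse, and control 5 held the most muscle transcripts. The part of muscle RNA in these values was not tested. Between the 3 mice with low muscle markers (control 3, control 4 and Ntsr2 AKO 3) the log2 differences were -0.26 for Acsl3 and -0.24 for Acsl4. Between the mice with high muscle markers (control 5, Ntsr2 AKO 4 and Ntsr2 AKO 5) they were -1.31 and -1.16. Control 5 is the only control mouse on that side, so these values restate its high counts. The side was not matched for muscle, as the markers summed to 2718321 in control 5, 90280 in Ntsr2 AKO 4 and 198529 in Ntsr2 AKO 5. Ntsr2 AKO 3 is the only Ntsr2 AKO mouse on the low side, and the split was made after the values were seen. Acsl5 was steady, at 3530 to 4307 normalized counts (log2 fold change 0.01, 95% interval -0.28 to 0.30).

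Triglyceride assembly held 12 genes, 6 with the higher mean in Ntsr2 AKO mice and 6 with the lower, and a median log2 fold change of 0.00. Gpam, the mitochondrial acyltransferase that begins the glycerolipid pathway, had 7333, 2803 and 4529 in control and 4899, 2944 and 4779 in Ntsr2 AKO mice (difference on the log2 scale -0.14, 95% interval -1.02 to 0.73, adjusted p = 0.931). Its control order was the reverse of that of the synthesis genes, with control 3 highest and control 4 lowest. Agpat2, the acyltransferase whose loss causes lipodystrophy, had 14119, 20064 and 11180 in control and 18223, 13069 and 24364 in Ntsr2 AKO mice (difference on the log2 scale 0.29, 95% interval -0.40 to 0.98, adjusted p = 0.798). Lpin1, the phosphatidate phosphatase, had 17351, 35369 and 28443 in control and 30387, 32573 and 16349 in Ntsr2 AKO mice (difference on the log2 scale -0.04, 95% interval -0.88 to 0.80, adjusted p = 0.983). In Lpin1 Ntsr2 AKO 5 was the lowest of all mice, opposite to its place in the synthesis genes.

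The last step joins a fatty acid to diacylglycerol. Dgat1 had 9975, 18993 and 11894 in control and 16680, 18987 and 16686 in Ntsr2 AKO mice, with control 4 level with the highest Ntsr2 AKO mouse. Its log2 fold change was 0.41 (95% interval -0.16 to 0.98, adjusted p = 0.677). Dgat2, the form tied most closely to newly made fatty acids, had 62845, 40416 and 29114 in control and 50006, 30015 and 53624 in Ntsr2 AKO mice. For Dgat2 the log2 fold change was 0.04 (95% interval -0.77 to 0.85, adjusted p = 0.980). The remaining 7 genes of assembly (Agpat1, Agpat3, Agpat4, Lpin2, Lpin3, Mogat1 and Mogat2) had log2 fold changes between -0.64 for Agpat4 and 0.30 for Mogat2, and the groups overlapped in each. The intervals stayed within 1.5-fold for 5 of the 12 genes and within 2-fold for 9.

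Supply of the glycerol backbone was led by Pck1, the cytosolic PEPCK of glyceroneogenesis (chr2:173153048-173159273). Pck1 had 141507, 232823 and 130003 in control and 287633, 316532 and 169383 in Ntsr2 AKO mice. A pair of Ntsr2 AKO mice lay above every control mouse, and Ntsr2 AKO 5 lay within the control range. The fold change was 1.53 with a 95% interval of 0.86 to 2.73 (adjusted p = 0.664), and over all alternatives the adjusted p ranged from 0.450 to 1. Aqp7, the channel that lets glycerol leave the adipocyte, had 9687, 6219 and 5992 in control and 10658, 12584 and 6540 in Ntsr2 AKO mice (difference on the log2 scale 0.43, 95% interval -0.27 to 1.12, adjusted p = 0.708). As in Pck1, Ntsr2 AKO 5 was the lowest of its group in Aqp7.

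Gpd1, which reduces dihydroxyacetone phosphate to the glycerol backbone, had 60406, 77446 and 58505 in control and 58933, 52239 and 64979 in Ntsr2 AKO mice. For Gpd1 the log2 fold change was -0.15 (95% interval -0.58 to 0.28, adjusted p = 0.827). Gyk, glycerol kinase, which is low in white fat, had 600.1, 595 and 435 in control and 587, 475 and 615 in Ntsr2 AKO mice (difference on the log2 scale 0.05, 95% interval -0.42 to 0.52, adjusted p = 0.960). For Gpd1 and Gyk a 2-fold difference lay outside the interval.

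Levels were compared between genes per kilobase of exons (union of all annotated exons, GENCODE on GRCm38). Scd1 was the highest, with 245770 ± 49452 in control and 266792 ± 45957 in Ntsr2 AKO mice (SD, n = 3 mice each, normalized count per kb). Pck1 followed with 49026 ± 16429 and 75197 ± 22737, then Thrsp with 28723 ± 18636 and 36136 ± 14581. Gpd1 (22105 ± 3523 in control mice), Fasn (18669 ± 9391) and Dgat2 (14312 ± 5569) came next. The neighbours in that order from Pck1 to Dgat2 overlapped in their control values, while Scd1 was above the others in every mouse. The lowest level was that of Scd4, at 1.89 ± 0.53 in control mice. The 42 genes together took 3.0% to 4.04% of all counts in control and 3.87% to 4.62% in Ntsr2 AKO mice.

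**Figure D4:**
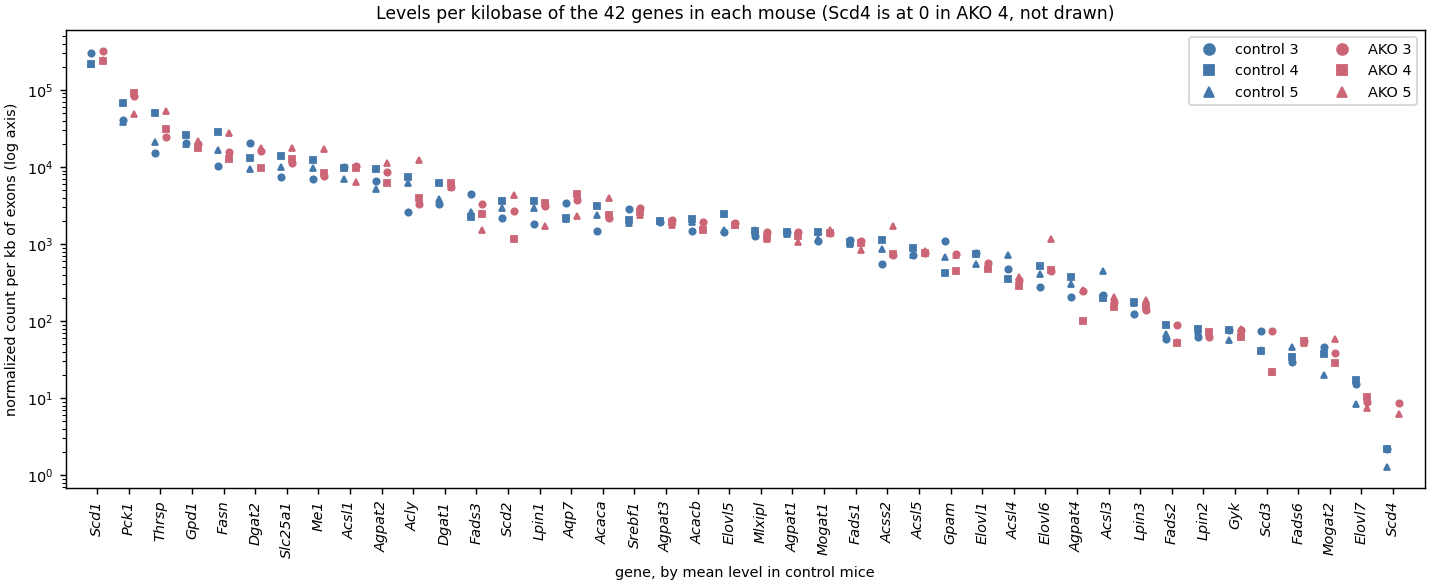
Normalized count per kilobase of exons in each mouse (log axis) for the 42 genes, ordered by the control mean. Scd1 stands above every other gene in every mouse, and Pck1, Thrsp, Gpd1, Fasn and Dgat2 follow with overlapping values.

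Position in the genome was shared by several members. Chromosome 19 held 9 of the 42, among them the 4 Scd genes, Fads1, Fads2 and Fads3 (from Fads3 at chr19:10041569-10060110 to Fads1 at chr19:10182888-10196877), Acsl5 and Gpam. Chromosome 11 held 5, namely Acly, Acaca, Fasn, Fads6 and Srebf1. Among the control mice, control 3 was highest for Scd1, Scd3, Fads1 and Fads3 but lowest for their neighbours Scd2 and Fads2.

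Other genes of the pathway were read from a list of 63, of which 62 were found and 58 tested. The mean was higher in Ntsr2 AKO mice for 31 of them and lower for 27, with a median log2 fold change of 0.02. An unadjusted p under 0.05 was found for 2 in each direction, which is 6.90% of the 58 beside 8.35% of all genes tested, and 0 of the 58 passed after adjustment in limma or DESeq2. Gpat3 (Agpat9 in the table), the acyltransferase of the endoplasmic reticulum that begins glycerolipid synthesis in adipocytes, had 4612, 3942 and 3364 in control and 5264, 5980 and 6338 in Ntsr2 AKO mice. The groups did not overlap in Gpat3, as in 15.0% of all genes tested (log2 fold change 0.57, 95% interval 0.21 to 0.93, adjusted p = 0.522), in contrast to the overlapping values of Gpam, which catalyses the same step in mitochondria. Whether the differences of Gpat3 and Gpam themselves differ was not tested. Beside Gpat3, the groups also did not overlap in Agpat5, Mboat1, Me2, Acbd3, Mcat, Srebf2 and Aacs. Such separation was found in 15.0% of all genes tested and is not read as a trait of this list. In Me2 it was slight, as the lowest control mouse had 867.0 and the highest Ntsr2 AKO mouse 866.0. Mcat, of mitochondrial fatty acid synthesis, had a log2 fold change of 0.29 (adjusted p = 0.575). The lower genes were Srebf2, the regulator of cholesterol synthesis, with -0.79 (adjusted p = 0.565), and Aacs, which makes acetoacetyl-CoA in the cytosol, with -0.68 (adjusted p = 0.522).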

How the data were processed

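The authors extracted total RNA from adipose tissue, selected poly-A RNA, trimmed paired-end reads with Trimmomatic, aligned them with HISAT2 (mm10 in the submitters' processing notes) and obtained counts with StringTie. The annotation is not given in the sources used here. They deposited a signal table of normalized counts, which are read counts divided by 1 size factor for each mouse. Whole reads were recovered from the steps of each column (100% whole, tolerance 0.01). Depth is 54085088 to 66098226 reads, so that the number of mice limits precision for all but the scarcest genes.

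Values were tested as log2(normalized count + 1) with limma 3.58.1 in R 4.3.3 (lmFit, eBayes with trend, no covariates, two-sided) over the 16157 genes whose mean was 10 or more, with Benjamini-Hochberg adjustment over all of them (threshold 0.05). Fold changes are Ntsr2 AKO minus control on that scale, and they understate changes of low genes. edgeR 4.0.16 (TMM, quasi-likelihood) and DESeq2 1.42.0 were run on recovered reads. The procedures were tested on simulated data. The members and lists were chosen with earlier results of these data known, and support nothing by themselves. Named genes were those with an unadjusted p under 0.05 and set members of each role, and others are said to be described after their values were seen. Alternatives were other pseudocounts (0.1 and 5), another filter (none, or a minimum mean of 50), quantile normalization, no trend, a block for the replicate number, the count tools, each mouse left out, values relative to adipocyte markers and a muscle covariate, and, added after seeing the data, the omission of 3 mice with muscle transcripts. Positions are from GENCODE M21 (GRCm38) and promoters from RefSeq. Cell type lists held markers of white and brown adipocytes, skeletal muscle, epithelium, mesothelium, lymphoid cells, macrophages, progenitors, endothelium and hepatocytes. Columns of identical values were not found. No 2 libraries were pooled.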

Additional observations from a re-analysis of the deposited data

How the results depend on the processing

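No member passed an adjusted p of 0.05 under any of the 18 alternatives, and the lowest adjusted p of a member was 0.359. Over all genes tested, the number past the adjusted threshold was 1. It was 0 without the filter, without the trend, with the replicate block, with edgeR (1323 genes at an unadjusted p under 0.05), relative to adipocyte markers, with the muscle covariate, without the 3 mice with high muscle markers (control 5, Ntsr2 AKO 4 and Ntsr2 AKO 5) and without any 1 mouse (0 to 0), and it was 220 with DESeq2. In the fits with 0, between 309 and 1696 genes had an unadjusted p under 0.05. Members at an unadjusted p under 0.05 numbered 2, where 8.35% of all genes tested were that low. They numbered 1 without the trend (8.20% of all genes) and 4 with DESeq2 (10.6%). Relative to adipocyte markers they numbered 0 (3.60% of all genes), and with the muscle covariate 4 (8.50%). The range was 1 to 8 when single mice were left out, and the 8 came without control 4 (Slc25a1, Elovl5, Thrsp, Acsl3, Acsl4, Dgat1, Mogat1 and Pck1), a fit in which 8.62% of all genes tested were that low. The cause was not tested.

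Of 432 log2 fold changes of the 24 named members under the alternatives, 390 kept their direction and 42, none past the threshold, turned it, in 14 genes. Without the 3 mice with muscle markers, which leaves 2 control mice and 1 Ntsr2 AKO mouse that is assumed to vary like them, the log2 fold changes that turned were -0.42 for Acly, -0.16 for Fasn, -0.29 for Me1, 0.0021 for Fads1, -0.020 for Elovl5, 0.079 for Mlxipl, -0.15 for Thrsp, 0.073 for Acsl1, 0.11 for Gpam, 0.29 for Lpin1, -0.011 for Dgat2 and -0.025 for Gyk. After quantile normalization they were 0.0018 for Fads1, 0.17 for Acsl1 and 0.11 for Lpin1. Acsl1 also turned with edgeR (0.0074), DESeq2 (0.0042) and the muscle covariate (0.018). With single mice left out the log2 fold changes ranged from -0.45 to 0.49 for Acly, -0.32 to 0.42 for Fasn, -0.23 to 0.37 for Me1, -0.014 to 0.28 for Scd1, -0.67 to 0.28 for Scd2, -0.18 to 0.0068 for Fads1, -0.095 to 0.29 for Elovl5, -0.18 to 0.20 for Acsl1, -0.49 to 0.20 for Gpam, -0.33 to 0.28 for Lpin1, -0.22 to 0.33 for Dgat2 and -0.10 to 0.16 for Gyk.

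The replicate numbers 3, 4 and 5 occur in both groups, with correlations of the deviations of same-numbered mice of 0.45, -0.24 and 0.41. For mice with different numbers the correlations ranged from -0.52 to 0.26. Deviations in a group of 3 sum to 0, so these values cannot decide whether same-numbered mice belong together. With the replicate block 3 members (Elovl1, Acsl3 and Acsl4) had an unadjusted p under 0.05, where 8.06% of all genes tested were that low.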
